A study of Mus musculus with 4 samples.

Results

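The genes that Gata4 marked in wild-type (WT) mesoderm were read from the 20410 Gata4 ChIP-seq peaks called in WT Flk1(+) cells with dexamethasone (Dex) over WT ES cells without Dex, out of 43143 peaks in both deposited lists of the series. Each peak was taken once, whatever its height, and the genes were those that the authors' list names within 5 kb of it. No peak was selected further, and 8627 gene names came with at least 1 peak. ChIP-seq sequences the DNA that an antibody against a protein brings down from crosslinked chromatin, and a peak is a place where the reads pile up.

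The WT Flk1(+) library came from J1 mouse ES cells that carried Gata4GR, Gata4 joined to the part of the human glucocorticoid receptor that binds the hormone, under the constitutive CAG promoter. They were differentiated on OP9 stroma cells for 4.5 days, given Dex (100 nM, 3 hours) to activate the fusion protein, and sorted for Flk1, the VEGF receptor encoded by Kdr. The WT ES library came from undifferentiated ES cells of the same genotype, which also carried Gata4GR but received no Dex. The WT line was 1 clone and each condition was 1 library, so no value below has a replicate, no test was possible, and cell type and Dex cannot be told apart. Intervals on shares are 95% Wilson intervals and cover counting error only. Those on shares of genes take genes as independent, although genes can share a peak, and allow nothing for the number of lists or cuts. The series also holds Dnmt3a/Dnmt3b double-knockout (DKO) libraries, which were not compared here.

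Gata4 is a zinc-finger transcription factor that binds the sequence WGATAA (W is A or T) and is known for its part in heart, endoderm and gonad development. It works with the Fog cofactors Zfpm1 and Zfpm2 and with cardiac factors such as Nkx2-5, Tbx5 and Mef2c. In ES cells its activation drives primitive endoderm, and Flk1(+) mesoderm is the source of blood, vessel, cardiac and smooth muscle cells.

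The sequences under the peaks that the results turn on are shown first, as the 101 bases around each peak's position in mm9 on the plus strand, taken from the deposited peak windows (250 bp on either side of the position), with every WGATAA match on either strand in capitals (TTATCW on the strand shown). The peak beside Spink4 (chr4:40866970-40867070), 65 bp upstream of its start, and the one beside Arl4d (chr11:101523177-101523277), 3628 bp upstream, had the highest height ratios of any gene, and Lrig3 (chr10:125398956-125399056, 4269 bp upstream) came next.
Spink4: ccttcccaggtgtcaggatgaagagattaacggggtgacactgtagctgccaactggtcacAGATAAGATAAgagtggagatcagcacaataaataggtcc
Arl4d: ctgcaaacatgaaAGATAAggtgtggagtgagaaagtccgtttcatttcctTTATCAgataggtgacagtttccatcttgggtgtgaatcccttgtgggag
Lrig3: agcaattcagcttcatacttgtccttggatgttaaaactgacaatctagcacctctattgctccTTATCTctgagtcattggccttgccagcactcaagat
Sept9 (chr11:117197670-117197770, intron 3), Kdr (chr5:76326115-76326215, 2687 bp past the gene's end), Zfpm1 (chr8:124846776-124846876, intron 3) and Smad1 (chr8:81918105-81918205, intron 1) are peaks in or beside a septin gene, the VEGF receptor gene, a Fog cofactor gene and a BMP transducer gene.
Sept9: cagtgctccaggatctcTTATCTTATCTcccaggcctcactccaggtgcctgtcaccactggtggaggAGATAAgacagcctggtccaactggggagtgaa
Kdr: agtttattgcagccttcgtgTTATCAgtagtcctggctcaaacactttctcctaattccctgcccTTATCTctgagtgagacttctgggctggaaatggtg
Zfpm1: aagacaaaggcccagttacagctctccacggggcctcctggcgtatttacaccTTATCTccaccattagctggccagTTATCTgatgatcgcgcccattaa
Smad1: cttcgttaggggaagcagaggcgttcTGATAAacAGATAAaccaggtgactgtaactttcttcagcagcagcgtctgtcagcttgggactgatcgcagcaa
Tbx5 (chr5:120325593-120325693, intron 8), Mesp1 (chr7:86942122-86942222, 3498 bp upstream), Eomes (chr9:118396763-118396863, 1563 bp past the gene's end) and Col4a1 (chr8:11234245-11234345, intron 21) stand for heart, early mesoderm, T-box and basement membrane genes.
Tbx5: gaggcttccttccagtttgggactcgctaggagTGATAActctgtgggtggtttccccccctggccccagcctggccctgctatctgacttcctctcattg
Mesp1: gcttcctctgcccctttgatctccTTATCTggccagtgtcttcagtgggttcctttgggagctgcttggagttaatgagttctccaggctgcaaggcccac
Eomes: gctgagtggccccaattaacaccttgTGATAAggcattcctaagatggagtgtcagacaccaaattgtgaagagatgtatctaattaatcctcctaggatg
Col4a1: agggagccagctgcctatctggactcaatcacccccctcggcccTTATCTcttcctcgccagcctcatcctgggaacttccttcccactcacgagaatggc
Got1 (chr19:43599110-43599210, 65 bp upstream) and Rpl9 (chr5:65782676-65782776, 44 bp upstream) are peaks at gene starts whose stretch held no match.
Got1: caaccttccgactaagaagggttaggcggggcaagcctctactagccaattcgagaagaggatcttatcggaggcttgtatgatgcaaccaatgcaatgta
Rpl9: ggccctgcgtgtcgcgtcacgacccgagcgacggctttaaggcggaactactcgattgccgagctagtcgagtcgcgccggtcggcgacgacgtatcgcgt
The first 11 stretches held 1 to 3 matches each, and in Spink4 and Sept9 a pair of matches overlapped.

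For each peak the list gives 2 heights of the authors' read profile, for Flk1(+) and for ES cells. The median height was 7.74 in Flk1(+) cells (quartiles 6.05 and 11.2) and 1.68 in ES cells. The ratio of the 2 heights, with an ES height below 1 taken as 1, had a median of 4.53 (quartiles 3.57 and 6.01). Every peak was above a height of 5.00 and a ratio of 3.00 because the authors called peaks on those values, so that each peak is higher in Flk1(+) cells by construction. A ratio of at least 10 was reached by 1270 peaks (6.22%) and a ratio of at least 20 by 125. The ES height was under 1 at 3316 peaks (16.2%, interval 15.7 to 16.8), and it was at least 5 at 647 peaks (3.17%), which then had a signal in both libraries.

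Height and ratio did not order the peaks alike. Of the 100 highest peaks, 11 were among the 100 with the highest ratio, and the top 1000 by each shared 314. The 100 highest peaks had a median height of 58.2 in Flk1(+) cells and 6.99 in ES cells, whereas the 100 peaks with the highest ratio had medians of 30.4 and 0.975. The highest peak outside the mitochondrial genome lay in intron 1 of Cd59a, a complement regulator, at 141.8 in Flk1(+) and 20.4 in ES cells, which is a ratio of 6.93. A single peak on the mitochondrial genome, named for Gm10222, stood at 816.4 in Flk1(+) and 269.4 in ES cells with a ratio of 3.03.

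**Figure D1:**
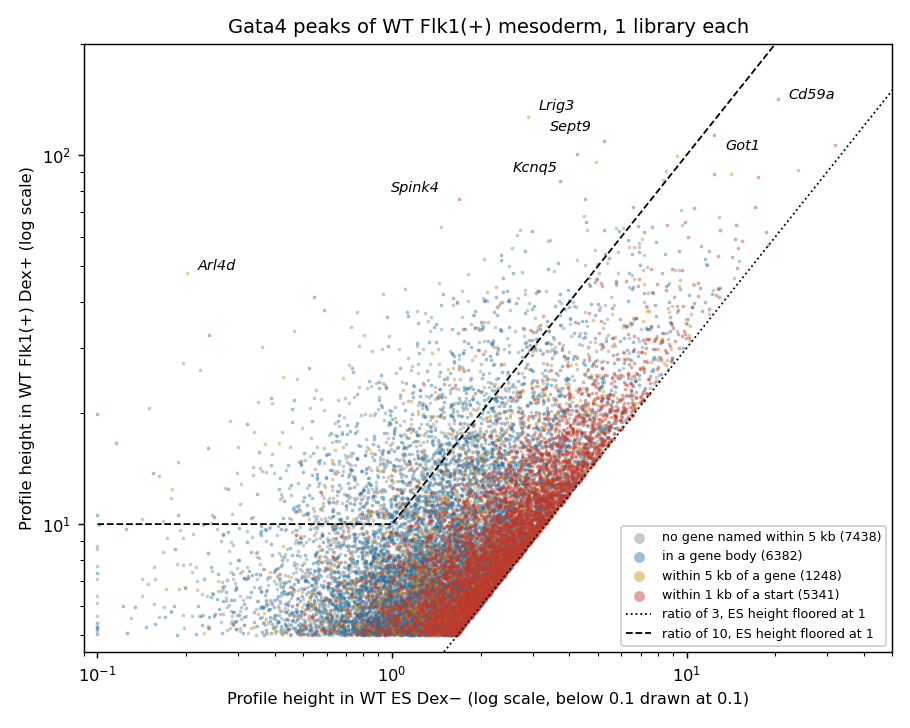
Profile height of each peak in WT Flk1(+) Dex+ (y axis, log scale) against WT ES Dex− (x axis, log scale), coloured by position, with dashed and dotted lines at ratios of 10 and 3 and the mitochondrial peak left out. Peaks within 1 kb of a gene start (red) lie close above the ratio of 3, with a median of 3.80, and the highest peak, in Cd59a, has an ES height of 20.4, whereas that beside Arl4d has 0.202.

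The classes of position differed more in ratio than in height. Peaks within 1 kb of a RefSeq start numbered 5341 (26.2%) and had a median ratio of 3.80, against 4.87 for the 6382 peaks in gene bodies, 4.47 for the 1249 within 5 kb of a gene and 5.16 for the 7438 for which the list names no gene. Their median height of 8.44 was the highest of the 4 classes, and so was their median ES height of 2.17, against 1.5 to 1.68 in the other 3. A ratio of at least 10 was found at 31 of the start peaks (0.580%) and at 669 of the peaks without a named gene (8.99%). Start peaks were also the CpG-rich ones, with a median of 36 CpG in the peak window against 5 to 7 in the other classes.

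The WGATAA motif followed the same division. It was present in 12637 of the deposited peak windows (61.9%, interval 61.2 to 62.6), and in 49.4% of all windows of that length laid side by side over the genome. At starts it was found in 21.5% of peaks (20.4 to 22.6), and 23.3% of the windows centred on the starts of all protein-coding genes held it. In gene bodies the share was 75.2%, in the flanks 66.4% and at peaks without a named gene 78.8%. The share rose with the ratio, from 47.5% of peaks with a ratio of 3 to 4, over 71.0% at 5 to 7 and 82.7% at 7 to 10, to 95.2% (89.9 to 97.8) of the 125 peaks with a ratio of 20 or more. At least a pair of matches was found in 20.2% of the first of these classes and in 72.8% of the last. Position changed along with the ratio, as start peaks made up 40.3% of peaks at 3 to 4, 16.2% at 5 to 7 and 0.8% at 20 or more. What part position had in the rise was not tested. By ES height the motif share went down and up again, from 83.2% of peaks with an ES height below 0.5 to 51.0% at 3 to 5 and 82.1% of the 56 peaks at 10 or more. A match is a description of the letters in the window and not a site.

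**Figure D2:**
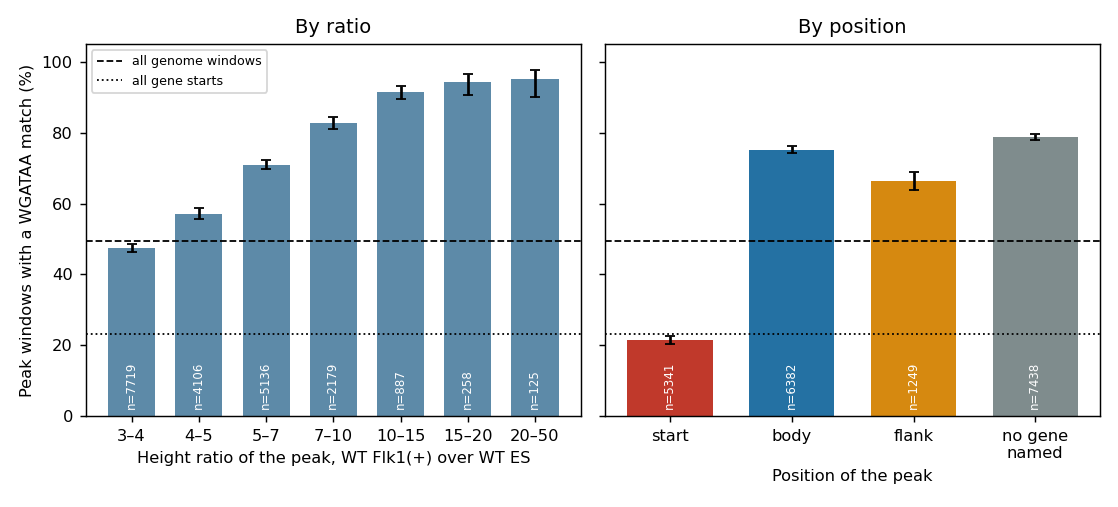
Share of the deposited peak windows with a WGATAA match on either strand (y axis, percent; bars with 95% Wilson intervals, n in the bars) by height ratio (left) and by position (right), with lines for all genome windows (49.4%) and for all gene starts (23.3%). The share climbs from 47.5% to 95.2% with the ratio, and start peaks, at 21.5%, lie near the line for gene starts. Start peaks make up 40.3% of the lowest ratio class and 0.8% of the highest.

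Of 22238 protein-coding genes of the annotation, 8279 (37.2%) had a peak named within 5 kb, 4811 (21.6%) had one within 1 kb of a start, 411 (1.85%) had at least 5 peaks, 893 (4.02%) had a peak of height 20 or more and 519 (2.33%) had a ratio of at least 10. These shares are the background for every count of genes below. Longer genes were marked more often. The share was 15.1% of genes under 5 kb, 43.9% at 20 to 50 kb and 76.0% of the 200 genes of 500 kb or more. Most olfactory and vomeronasal receptor genes fall in the shortest class, with median lengths of 0.960 and 1.09 kb. Of these families 1.71% and 1.56% were marked. The 100 genes with the most peaks had a median length of 334 kb, against 28.1 kb for all genes with a peak.

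By number of peaks the order was led by long genes. Auts2, a regulator of neural development of 1106 kb, held 40 peaks. Their median ratio was 5.32, and 6 reached a ratio of 10. Bcas3 held 30, the acid-sensing channel gene Accn1 24, Slit3, a ligand of Robo receptors, 23, and Maml3, a Notch coactivator, 21. Frmd4b had 20, Magi1, Odz2 and Zfpm1 had 19 each, and Dnahc2, Frmd4a and Odz4 had 17 (Prkca also had 17). Of these 12 genes, 11 were 128 to 1229 kb long, and the exception was Zfpm1, with 19 peaks in a gene of 55.1 kb.

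By height, Cd59a was followed by Lrig3, which encodes a leucine-rich repeat membrane protein, at 126.8 in Flk1(+) and 2.90 in ES cells. Got1, the cytosolic aspartate aminotransferase, stood at 113.1 and 12.4, the septin gene Sept9 at 108.9 and 5.25, and a start shared by Man1b1 and AA543186 at 106.4 and 31.9. Thus the high peaks held both those with little ES signal and those with the highest ES signal of the nuclear genome. Kcnq5, a potassium channel gene, stood at 100.8 and 4.26. Plekha6 stood at 99.5 and 9.30, Ccdc33 at 95.7 and 4.93, and Cfc1, a co-receptor of Nodal, at 89.1 and 14.1. Lcp2, an adaptor of T cell and platelet signalling, stood at 88.7 and 12.4.

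By ratio, the small GTPase gene Arl4d came first, at 47.8 in Flk1(+) and 0.202 in ES cells, which with the floor of 1 is a ratio of 47.8. Spink4, a Kazal-type protease inhibitor gene, stood at 75.9 and 1.69 (ratio 44.9) and Lrig3 had a ratio of 43.7. E430016F16Rik (41.2), Gm11992 (38.0), the amino acid transporter gene Slc7a15 (36.5), Glt8d4 (32.6) and the olfactory receptor gene Olfr1378 (32.5) each had an ES height under 1, so that their ratio equals their height. Auts2 (33.5), Csgalnact1 (32.2), an enzyme of chondroitin sulfate synthesis, and Scfd2 (28.6) had ES heights of 1.12 to 1.22. Smad1, the signal transducer of BMP receptors, had a ratio of 30.4. With 1 added to both heights the order and the size changed, as Arl4d stood at 40.6, Lrig3 at 32.8, Spink4 at 28.6 and the other 9 between 15.9 and 27.3.

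The 3 orders named different genes. The first 100 genes by number and by height shared 12, those by number and by ratio 18, and those by height and by ratio 16. The genes in all 3 were Sept9, Ccdc33, Ksr1 and Ntn1, and all but Ccdc33 lie on chromosome 11. Sept9 had 13 peaks and Ksr1, a scaffold of the Raf and MEK kinases, had 11, with its highest at 52.5 in Flk1(+) and 5.44 in ES cells. Ntn1, which encodes the guidance cue netrin-1, had 8 peaks with its highest at 44.9 and 10.5 and its highest ratio of 22.1 at another peak in intron 7. Ccdc33 had 8 peaks. In each of these 4 genes 1 or 2 peaks reached a ratio of 10 and the others did not.

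The genes were then read by function, in 34 lists of genes. In 26 lists the share of members with a peak was above the 37.2% of all protein-coding genes and in 8 it was below. Lists differ in gene length, and longer genes were marked more often. In 28 lists the share was above that of all genes in the length class of the list's median gene, and in 6 it was below. Peaks per 100 kb of gene were above the 1.04 of all genes in 29 lists and below it in 5, which were the collagen (0.697), neuronal (0.808), germline (0.558) and both smell receptor lists. Here the peaks of a list were divided by the summed length of its genes with 5 kb on each side. Long genes weigh most in that sum, so that the value does not take out gene length. Ribosomal protein genes, with a median of 3.23 kb, had 5.93, and olfactory receptor genes, with 0.960 kb, had 0.207. Which share a list had also changed with the cut on height or ratio, and such values are given below relative to the share of all genes under the same cut.

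**Figure D3:**
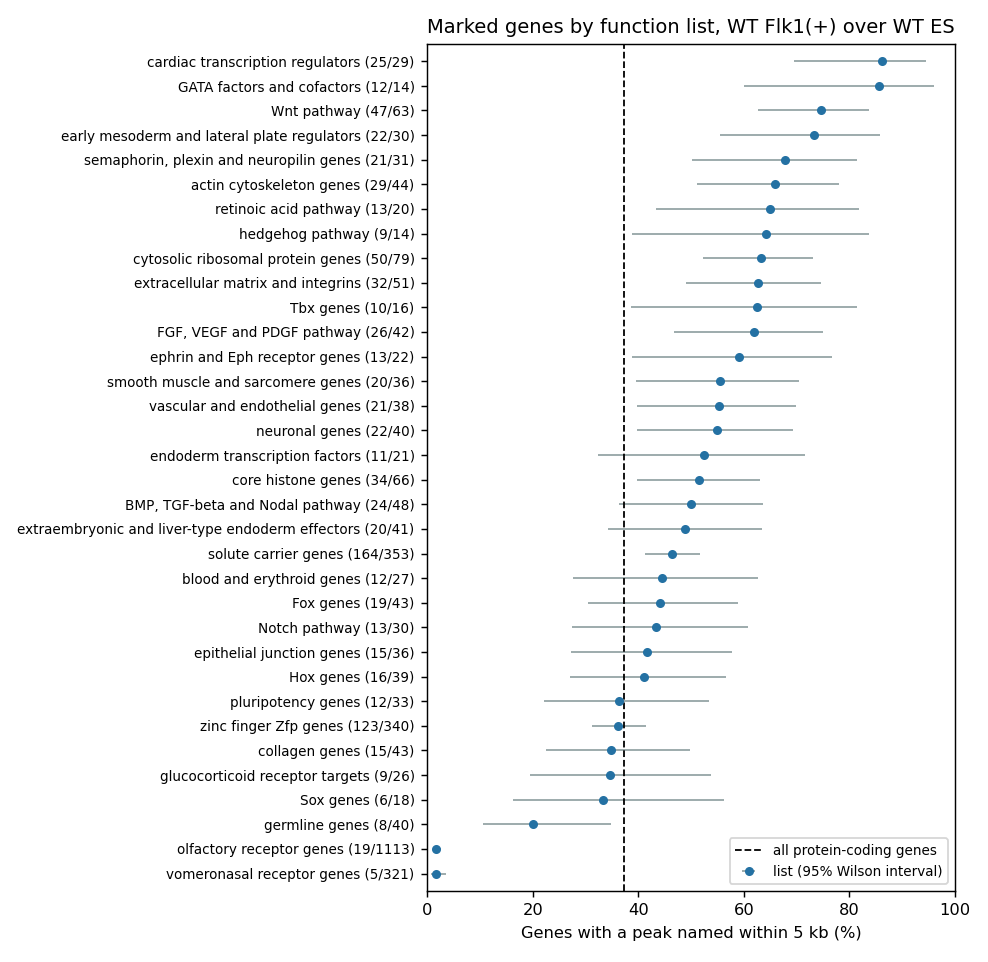
Share of the members of each list that had a peak named within 5 kb (x axis, percent; points with 95% Wilson intervals, members marked and members measured in brackets), with a dashed line at 37.2% for all protein-coding genes. Cardiac regulators and GATA factors lie at the top with 86.2% and 85.7%, and the receptor families of smell lie at the bottom with 1.71% and 1.56%.

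The Gata factors and their partners were marked at 12 of 14 genes (85.7%, interval 60.1 to 96.0), with 3.54 peaks per 100 kb against 1.04 over all genes. Zfpm1 had the most peaks of the list. Its 19 peaks ranged from 5.19 to 71.8 in height, and those at 71.8, 58.8, 55.0 and 47.9 in Flk1(+) cells stood at 10.6, 6.32, 9.40 and 6.36 in ES cells. They lay in introns 1, 3 and 4. Zfpm2 held 7 peaks that were lower, at 12 at most in Flk1(+) and 0.710 in ES cells at that peak, and all 7 held the motif. Lyl1, a partner in blood stem cell complexes, stood at 62.6 and 13.0, and Cbfa2t3, a corepressor of the same complex, at 23.4 and 2.50. Gata6 held 3 peaks, the highest at 21.2 and 3.99. Tal1 was at 14.7 and 3.38, Gata3 at 8.37 and 2.74, Gata4 itself at 8.08 and 1.41, and Gata2 at 5.86 and 1.42. The members with no peak were Gata1 and Gata5.

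The regulators of heart development were marked at 25 of 29 genes (86.2%, 69.4 to 94.5), with 4.09 peaks per 100 kb. All 4 without a peak were Hey2 and the Iroquois genes Irx3, Irx4 and Irx5. Tead1, a partner of Yap, had 13 peaks, with the highest at 39.3 in Flk1(+) and 7.80 in ES cells. Isl1, the factor of the second heart field, had a peak 20 bp upstream of its start at 30.3 and 4.63. Prdm16 stood at 34.3 and 7.57 and Foxh1, the Smad partner in Nodal signalling, at 28.5 and 6.85. These 4 highest cardiac peaks also had ES heights above the median of 1.68. The T-box genes Tbx1, which patterns the pharyngeal arches, and Tbx5, which is needed for the atria and limbs, stood at 22.3 and 3.30 and at 21.8 and 3.12. Mesp1, an early marker of cardiac mesoderm, had 5 peaks on both sides of the gene, with heights of 6.38 to 17.8 and ES heights of 0.528 to 2.07. Hopx had a ratio of 19.0 and Hand2 of 13.2, while Nkx2-5 (5.51) and Mef2c (6.68) were lower.

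Regulators of early and lateral plate mesoderm were marked at 22 of 30 genes (73.3%, 55.6 to 85.8), but their peaks were no higher than those of other genes, with a median height of 7.02 against 7.83 over the peaks of all genes. Eomes, the T-box factor of the primitive streak, had 4 peaks past its end. The one shown above stood at 19.6 in Flk1(+) and 1.37 in ES cells. Twist2 stood at 23.0 and 2.18, and Tbx6, a factor of paraxial mesoderm, at 22.5 and 4.01. Msx1 had 4 peaks, the highest at 12.4 and 0.918, and Prrx1 stood at 13.0 and 1.92. Mixl1 and T (Brachyury) had a peak each, with ratios of 3.34 and 6.20, and Cdx2, Msgn1, Twist1 and Tcf21 had none.

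Kdr, whose product was used to sort the cells, carried 6 peaks, and 4 of them were past a ratio of 10. Those past the gene's end stood at 39.7 and 16.5 in Flk1(+) and at 1.67 and 0.371 in ES cells. Those in introns 10 and 15 stood at 24.9 and 13.3, against 2.02 and 0.829, and each of the 4 windows held 2 or 3 motif matches. In the vascular list 21 of 38 genes had a peak (55.3%, 39.7 to 69.9). Flt1, the other VEGF receptor gene on this chromosome, also had 6 peaks, with the highest at 18.9 and 0.977. Aplnr, the apelin receptor gene, had 9 and Nrp1, a co-receptor of VEGF and semaphorins, had 7, with the highest at 23.9 and 3.91 and at 29.0 and 2.27. Erg, an Ets factor of endothelium, had 5 peaks that all held the motif, at up to 20.8 in height. Etv2, which sets the endothelial and blood fate, had 1 peak at 11.4 and 2.10. The endothelial genes Pecam1, Tie1, Cldn5, Dll4 and Sox17 had none.

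Flk1(+) cells were also read through genes known to mark mesoderm and ES cells, although a peak shows binding and not expression. The 6 mesoderm markers Kdr, Pdgfra, Tal1, Etv2, Foxf1a and Hand1 were all marked, with highest ratios from 4.01 for Foxf1a to 23.8 for Kdr, although 8 of the 30 early mesoderm regulators above had no peak. Of the ES cell markers, Pou5f1, Sox2, Nanog and Zfp42 had no peak and Esrrb had 3, the highest at 12.4 in Flk1(+) and 2.66 in ES cells. The wider pluripotency list, given below, was marked at about the share of all genes.

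Blood genes were marked at 12 of 27 (44.4%, 27.6 to 62.7), an interval that holds the background. With peaks of height 10 or more alone the share was 1.91 times that of all genes (1.07 to 2.99), which does not hold it. With a ratio of 5 or more it was 1.75 times that of all genes (0.890 to 3.02). With the nearest gene alone it was 1.26 times (0.759 to 1.84), and both of these intervals hold the background. Runx1, the factor of blood stem cell emergence, had 11 peaks, the highest at 32.2 in Flk1(+) and 4.51 in ES cells in intron 2 with 6 motif matches. Add2, an adducin of the red cell skeleton, stood at 24.9 and 0.681. The globin genes of the list, Klf1, Alas2 and Slc4a1 had no peak.

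**Figure D4:**
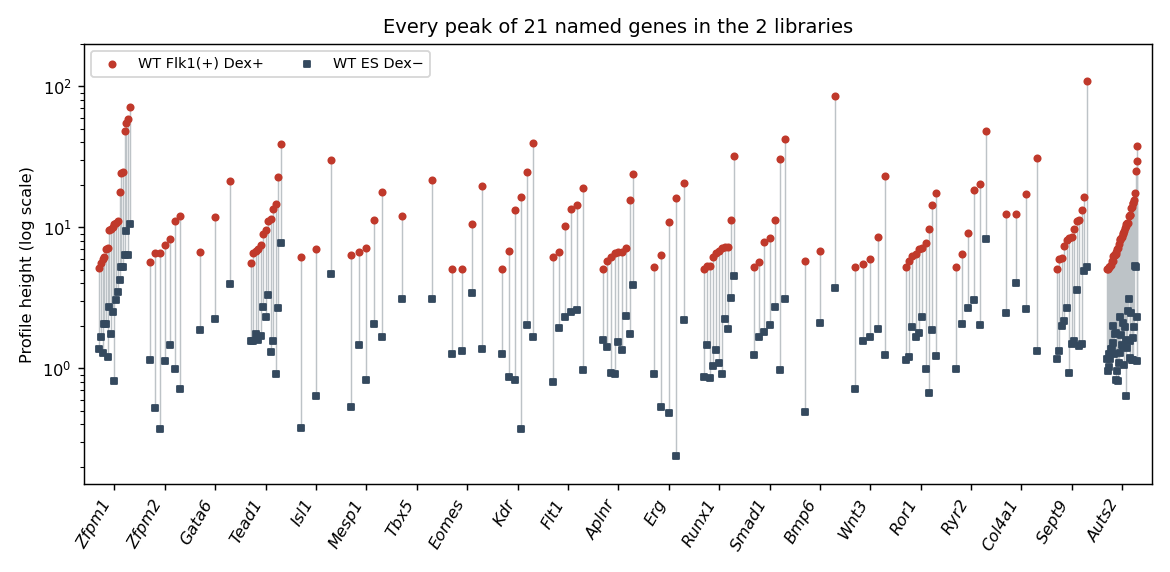
Profile height (y axis, log scale) of every peak of 21 named genes (x axis) in WT Flk1(+) Dex+ (red points) and in WT ES Dex− (dark squares), with a line joining the 2 values of a peak and the peaks of a gene ordered by height. The highest peak of Zfpm1, at 71.8, has an ES height of 10.6, whereas in Kdr the peak of 39.7 has an ES height of 1.67.

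Contractile genes were marked at 20 of 36 (55.6%, 39.6 to 70.5). Ryr2, the calcium release channel of the heart, had 6 peaks with the highest at 47.9 in Flk1(+) and 8.27 in ES cells. Myh11, the smooth muscle myosin, had 1 peak at 22.4 and 1.36, and Mylk, its kinase, stood at 20.4 and 1.48. Ttn, the giant sarcomere protein, had 4 peaks that all held the motif, with a highest ratio of 17.2. The atrial myosin light chain gene Myl7 stood at 22.4 and 5.15. Known cardiac Gata4 targets of later stages, Nppa, Nppb, Myh6 and Tnni3, had no peak within 5 kb.

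Among the pathways, BMP, TGF-beta and Nodal genes were marked at 24 of 48 (interval 36.4% to 63.6%). With peaks of height 10 or more alone the share was 0.956 of that of all genes (0.499 to 1.70). With a ratio of 5 or more it was 1.83 times that of all genes (1.12 to 2.77). Of the ligands, Bmp6 had a peak of 85.2 in Flk1(+) and 3.73 in ES cells in intron 2, and Bmp4 had 1 at 13.5 and 1.57. Bmp5 was not named by the list, but a peak 6167 bp from it stood at 34.1 and 0.725, beyond the 5 kb used for naming. Of the transducers, Smad1 had 7 peaks, all in intron 1, of which the highest 2 stood at 42.4 and 30.4 in Flk1(+) cells and at 3.08 and 0.973 in ES cells. Smad5 had 4, at up to 21.5, and the inhibitory Smad6 had 7, at up to 12.8. Smad2, Smad7 and Smad9 had none. Bmpr1a, the type I receptor, had 1 peak of 7.80, and Bmpr2 had none.

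The Wnt pathway was marked at 47 of 63 genes (74.6%, 62.7 to 83.7), and 7 (11.1%, against 2.33% of all genes) reached a ratio of 10. The median Wnt gene is 35.7 kb long, against 15.5 kb over all genes, and the 2.33% is not matched for length. Here too the peaks were of ordinary height, with a median of 7.02. The ligand Wnt3 had 5 peaks, and the one in intron 4 stood at 23.0 in Flk1(+) and 1.24 in ES cells. The receptor Ror1 had 10, at up to 17.5 and 1.22. Of the receptors Fzd3 stood at 20.5 and 3.92, and Lgr5, the R-spondin receptor, reached a ratio of 17.6. The secreted inhibitor Frzb stood at 22.6 and 3.74 and Sfrp1 reached a ratio of 14.4. In the nucleus, Lef1 had 4 peaks at up to 18.0 and the feedback gene Axin2 had 5 at up to 7.67. Wnt1, Wnt8a, Rspo1 and Fzd10 were among the 16 without a peak.

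Genes of the FGF, VEGF and PDGF pathway, which include ligands, receptors and inhibitors, were marked at 26 of 42 (61.9%), with 1.06 peaks per 100 kb, near the 1.04 of all genes. Among them stood Fgf10, a ligand of the second heart field, at 40.2 in Flk1(+) and 2.50 in ES cells. Notch genes were marked at 13 of 30 (43.3%), with Maml1 at 37.0 and 5.57 and Hes1, a target of Notch, at 33.0 and 5.04. Retinoic acid genes were marked at 13 of 20 (65.0%), with Cyp26a1, which degrades retinoic acid, at 19.4 and 2.90. Hedgehog genes were marked at 9 of 14 (64.3%), with Gli3 at 23.2 and 1.78. With peaks of height 10 or more alone, the retinoic acid and hedgehog shares were 0.860 and 0.410 of that of all genes. The intervals of both hold the background. With a ratio of 5 or more the retinoic acid share was 2.36 times that of all genes (1.22 to 3.83). The hedgehog share was then 2.41 times it (1.10 to 4.14).

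Matrix and cytoskeleton genes are long, with medians of 72.5 and 80.5 kb, and 51.1% of all genes of 50 to 100 kb were marked. The matrix and integrin list had 32 of 51 genes (62.7%, 49.0 to 74.7), with 1.40 peaks per 100 kb, and 6 of them (11.8%) reached a ratio of 10. Fbln2, a fibulin of basement membranes and elastic fibres, stood at 42.9 in Flk1(+) and 3.11 in ES cells. Col4a1, the basement membrane collagen, had 4 peaks and the one in intron 21 stood at 31.2 and 1.33. Col23a1 had 10 peaks and a highest ratio of 24.0, but the collagens as a family were marked at 15 of 43 (34.9%), below the 59.0% of all genes of 100 to 200 kb, the class of their median length. With a ratio of 5 or more the collagen share was 1.89 times that of all genes (1.13 to 2.88), and within 5 kb of a start it was 0.417. Actin cytoskeleton genes had 29 of 44 marked (65.9%, 51.1 to 78.1), with 1.22 peaks per 100 kb, and Palld had 10 peaks, at 26.8 at most. No actin cytoskeleton gene reached a ratio of 10, and 2.33% of all genes did. Semaphorins, plexins and neuropilins had 21 of 31 (67.7%, 50.1 to 81.4) and ephrins and Eph receptors 13 of 22 (59.1%, 38.7 to 76.7), with 1.33 and 1.18 peaks per 100 kb. Among the latter Ephb1 stood at 58.0 and 7.86.

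Transcription factors of endoderm had 11 of 21 marked (52.4%, 32.4 to 71.7), an interval that holds the background. Their share was 0.819 of that of all genes with a height of 10 or more and 2.25 times it (1.16 to 3.69) with a ratio of 5 or more. Counted at that ratio are Eomes, Gata6 and Gata4, which also belong to lists above, with highest ratios of 14.3, 5.30 and 5.71. Eomes alone of the endoderm list reached a ratio of 10. Prox1, a factor of liver and lymphatic cells, stood at 29.4 in Flk1(+) and 3.02 in ES cells, Hhex at 9.29 and 1.07, and Foxa1, Foxa2 and Foxa3 had a peak each with ratios of 3.31 to 6.59. Sox17, Sox7, Hnf4a and Pdx1 had none. Effector genes of extraembryonic and liver-type endoderm had 20 of 41 marked (48.8%, 34.3 to 63.5), with Spink4 at the head and Krt18 at 34.9 and 10.1. Dab2, Afp, Alb and Amn had no peak.

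Pluripotency genes were marked at 12 of 33 (36.4%, 22.2 to 53.4) and germline genes at 8 of 40 (interval 10.5% to 34.8%). No germline gene reached a ratio of 10, and 2.33% of all genes did. Tdgf1, a Nodal co-receptor that is also expressed in mesendoderm, stood at 35.2 in Flk1(+) and 2.05 in ES cells, and Gdf3, a ligand of the same pathway, at 18.1 and 1.15. Genes of the glucocorticoid response were marked at 9 of 26 (34.6%, 19.4 to 53.8). Dex also binds the cells' own glucocorticoid receptor, and of its known targets Zbtb16 stood at 42.3 and 7.16 and Per1 at 19.5 and 2.10, while Fkbp5, Tat, Dusp1 and Klf9 had no peak.

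The peaks of ribosomal protein genes lay mostly at starts. Cytosolic ribosomal protein genes were marked at 50 of 79 (63.3%, 52.3 to 73.1), a share like that of the matrix list. However, 82.4% of their 68 peaks lay within 1 kb of the start of a gene named for the peak. At their own start 37 of the 79 genes (46.8%) had a peak within 1 kb, against 21.6% of all genes. Of all genes under 5 kb, the class of the median length here and for histone genes, 15.1% were marked. The smell receptor genes in that class lower its share, which was not computed without them. The ribosomal protein peaks had a median ratio of 3.67, against 3.80 over all start peaks. The motif was held by 29.4% of them, against 21.5% of all start peaks. No ribosomal protein gene reached a ratio of 10, and 2.33% of all genes did. Rpl9, whose sequence is shown above, stood at 22.9 in Flk1(+) and 6.47 in ES cells and Rpl22 at 21.8 and 2.67. Core histone genes had 34 of 66 marked (51.5%), with a median ratio of 3.84 over 17 peaks, as neighbouring histone genes shared peaks. When peaks with a ratio of 5 or more alone were counted, the 2 shares were 0.513 and 0.614 of the share of all genes.

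The shares of 4 families of transcription factors had overlapping intervals. T-box genes were marked at 10 of 16 (62.5%, 38.6 to 81.5), Fox genes at 19 of 43 (44.2%, 30.4 to 58.9), Hox genes at 16 of 39 (41.0%, 27.1 to 56.6) and Sox genes at 6 of 18 (33.3%, 16.3 to 56.3), among which Sox9 had 6 peaks. The last 3 intervals hold the 37.2% of all genes. The median Hox and Sox genes are 4.06 and 4.8 kb long, and 15.1% of all genes under 5 kb were marked. That is below both of their intervals, but the smell receptor genes lower it, and the share without them was not computed. Hox peaks had heights of 10.0 at most, and with a height of 10 or more the Hox share was 0.294 of that of all genes (upper bound 0.968). Zinc finger genes of the Zfp series were marked at 123 of 340 (36.2%), and 66.0% of their peaks lay at starts. Neuronal genes, with a median length of 59.7 kb, were marked at 22 of 40 (55.0%, 39.8 to 69.3), near the 51.1% of all genes of 50 to 100 kb, and had 0.808 peaks per 100 kb. Syt1, the synaptic calcium sensor, had 8 peaks. Olfactory receptor genes were marked at 19 of 1113 (1.71%) and vomeronasal receptor genes at 5 of 321 (1.56%), and 88.9% and 100.0% of their few peaks held the motif. Epithelial junction genes had 15 of 36 (41.7%), and Cdh1, E-cadherin, stood at 20.7 and 3.72. Solute carrier genes were marked at 164 of 353 (46.5%, 41.3 to 51.7), and with a height of 10 or more their share was 0.877 of that of all genes.

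For 7438 peaks (36.4%) the authors' list names no gene. Of these, 525 (7.06%) lay inside a protein-coding gene of the GENCODE annotation and 174 (2.34%) within 5 kb of one, and the others lay farther away. The highest of the unnamed peaks lay 67714 bp from Lhx1, a factor of the node and kidney, at 91.2 in Flk1(+) and 24.0 in ES cells, and the next, at 90.4 and 8.51, lay 25107 bp from Wsb1. A peak 23436 bp from Cyp4x1 stood at 33.4 and 0.464 with 3 motif matches.

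Chromosomes did not carry equal numbers. Chromosome 11 held 2329 peaks (11.4%), or 19.6 per Mb, against 7.35 per Mb over the others, and 25.4 per Mb past 50 Mb against 10.8 before it. Per 100 protein-coding genes it held 141 peaks, against 87.9 over the others. By this measure the part past 50 Mb, with 135, was below the part before it, with 167. Of the protein-coding genes of chromosome 11, 54.6% were marked (55.1% past 50 Mb and 52.3% before it), against 35.9% on the others. On it lay 5 of the 12 genes with the most peaks (Bcas3, Accn1, Slit3, Odz2 and Dnahc2). Sept9, Ksr1 and Ntn1, and Arl4d, Gm11992 and Olfr1378 of the genes with the highest ratios, lay on chromosome 11 too. Its median heights, 7.84 in Flk1(+) and 1.78 in ES cells, were close to the 7.73 and 1.67 of the others, but 52.9% of its peaks held the motif (50.5% past 50 Mb), against 63.1% on the others. On chromosome 8, which holds Zfpm1, Smad1, Lyl1 and Col4a1, both medians were higher, at 9.01 and 1.98, and on X both were lower, at 6.93 and 1.22, with 2.06 peaks per Mb. What part the chromosome had in the order of the genes was not tested. Without chromosome 11, 28 lists were above the share of all genes.

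**Figure D5:**
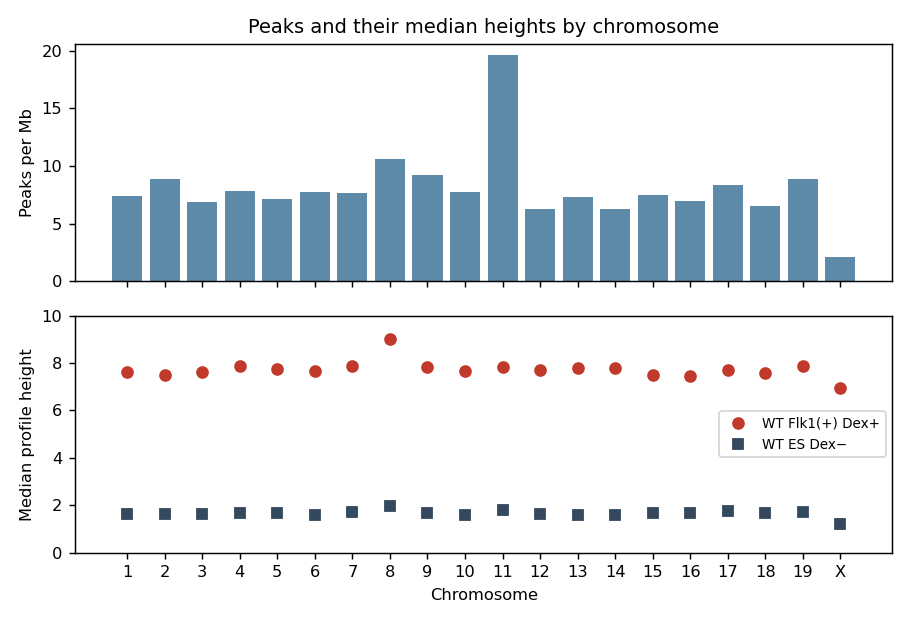
Peaks per Mb (top) and median profile height of the peaks in each library (bottom, red points for WT Flk1(+) Dex+ and dark squares for WT ES Dex−) by chromosome (x axis). Chromosome 11 stands at 19.6 peaks per Mb with heights like the others, chromosome 8 has the highest median of 9.01, and X the lowest of 6.93.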

How the data were processed

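Gata4 ChIP-seq was deposited for 4 libraries, of which WT Flk1(+) with Dex and WT ES without Dex are compared here. Chromatin was precipitated with a mixture of Gata4 antibodies. Reads were mapped to mm9 by a company (the submitters' processing notes name CASAVA 1.8.1 and cutadapt), and the authors called peaks with DNAnexus tools over the ES library. The deposited signal of a peak is the height of the authors' kernel density profile in each library. Whether it is scaled to depth is not given in the sources used here, and the depth of the ES library is unknown. The authors' ratio takes an ES height below 1 as 1, as was checked for every peak. The −log10 of the deposited q-value and the authors' rank, a score, were not used to choose peaks. No column names a library, and the list was tied to the WT libraries by its file label and columns.

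Each peak was counted once. Genes were the authors' RefSeq names within 5 kb, of which 8094 matched a protein-coding symbol of GENCODE vM1 directly, 188 through a synonym and 345 not at all. Gene parts (exon, intron, distance) are those of the GENCODE annotation of the same build, and all 20410 deposited windows were identical to the reference and centred on the peak. WGATAA was searched on both strands, overlapping matches included. The genome background is 5100775 windows side by side without unknown bases, and the other is 22202 windows centred on gene starts. Python 3.11.15, NumPy 2.4.6, pandas 2.3.3, SciPy 1.17.1 and Matplotlib 3.10.9 were used. Steps were tested on simulated data.

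With 1 library per condition there is no test. Lists are described by counts beside the share over all genes. The genes named are the 12 first by number, height and ratio, those in the top 100 of all 3, and for each list up to 6 members with the highest peak and up to 3 with the most peaks; other names, among them members without a peak, were chosen after their values were seen. Some items that the rule covers are not reported here. The lists and the rule were chosen with earlier results of these data known. Alternatives were stricter heights and ratios, other ways to tie peaks to genes, other floors, another motif and window and, added after seeing the data, leaving out chromosomes 8 and 11.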

Additional observations from a re-analysis of the deposited data

How the results depend on the processing

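The number of marked genes, 8279, became 3878 with a height of at least 10 and 3292 with a ratio of at least 5, and lay between 6199 and 11671 when peaks were tied to genes in other ways or chromosome 11 was left out. The median ratio of 4.53 became 3.23 when 1 was added to both heights, 5.34 with a height of at least 10 and 4.58 without chromosomes 8 and 11, and a floor of 0.5 left it at 4.53. The motif share of 61.9% became 71.8% with WGATAR and 52.6% in the central 200 bp. The number of lists above the share of all genes, 26 of 34, was 20 to 29 over the alternatives. Relative to that share, lists crossed 1 as follows. With a height of at least 10, the retinoic acid (0.860), hedgehog (0.410), core histone (0.956), solute carrier (0.877), endoderm transcription factor (0.819), BMP (0.956) and Hox lists (0.294) came below it and Sox genes (1.27) above it. With a ratio of at least 5, core histone (0.614), ribosomal protein (0.513) and Hox genes (0.693) came below it and collagen (1.89) and Sox genes above it. With the nearest gene alone, core histone (0.751) and Hox genes (0.953) came below it and collagen (1.08), Sox (1.03), pluripotency (1.03) and Zfp genes (1.04) above it. The other crossings lay between 0.996 and 1.10 and concerned the epithelial junction, glucocorticoid, pluripotency, Sox and Zfp lists. Further shares that moved by over 1.5 times were, with a ratio of at least 5, those of the cardiac (4.19), T-box (3.38), vascular (2.49), ephrin (2.46), endoderm transcription factor (2.25), Notch (2.03) and both smell receptor lists, with a height of at least 10 that of blood genes (1.91), within 5 kb of the start those of collagens (0.417) and semaphorins (1.16), and within 20 kb those of germline (0.857) and both smell receptor lists. For these the cause was not tested. Of the first 100 genes, 77 were kept by ratio when 1 was added to both heights and 95 by number and 83 by height with the nearest gene alone.

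No paired analysis was possible because each condition has 1 library, and for the same reason no library was left out. The ES library differs from the Flk1(+) library in cell type and in Dex, and depth limits how far a height of a few units can be read.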

Other observations

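Of the gene names that matched no protein-coding gene, 42 were miRNA genes, 36 snoRNA genes and 65 lincRNA genes. Among the miRNA genes, chosen after their values were seen, Mir195 had 3 peaks with the highest at 56.0 in Flk1(+) cells and a highest ratio of 5.32, Mir301 had 3 at up to 35.3, and Mir22 had 2 at up to 25.6 with a highest ratio of 5.65. Mir132 and Mir212 were named for the same peaks, at up to 18.8. These peaks also lie near other genes, so that the name does not say which transcript they belong to.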
